A study of Mus musculus with 24 samples.

Results

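The 9 genes described here belong to the integrated stress response and the unfolded protein response: Ppp1r15a, Atf4, Atf3, Ddit3, Xbp1, Hspa5, Asns, Trib3 and Stc2. They were picked by symbol from 36172 gene models, and each symbol had 1 row. Of the 9, 8 were among the 13048 genes that passed the expression filter, and Xbp1 was listed at 0 in all 24 libraries. The set was put together with earlier results of these libraries known, and the rise of Ppp1r15a in unloaded Notch2-mKO muscle was among them. That single contrast for Ppp1r15a, and the difference between genotypes in its unloading response, are therefore given as descriptions, with no test.

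RNA was sequenced from whole gastrocnemius muscle of C57BL/6 mice in 6 groups of 4 libraries. Notch2-mKO mice had the genotype Mlc1fCre/+;Notch2f/f, in which Cre recombinase made from the Mlc1f locus, a myosin light chain gene of fast muscle fibres, acts on floxed Notch2 alleles. WT mice had the genotype Notch2f/f, so that they carried the same floxed alleles without Cre. The groups were Notch2-mKO-Unloading and WT-Unloading (hindlimb suspension for 7 days), Notch2-mKO-Diabetes and WT-Diabetes (14 days after 1 injection of streptozotocin, a beta cell toxin, at 150 mg per kg), and Notch2-mKO-Control and WT-Control. Mlc1f is a gene of muscle fibres, so satellite cells and non-muscle cells are not its usual site of action. The labels do not say that replicates were separate animals, so a p-value here speaks of the spread between these samples, part of it perhaps technical.

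In the integrated stress response, several kinases phosphorylate the translation initiation factor eIF2. Most translation slows, while the mRNA of the transcription factor ATF4 is translated more, and ATF4 in turn drives genes for amino acid supply, for the factors CHOP (Ddit3) and ATF3, and for GADD34 (Ppp1r15a), a phosphatase subunit that takes the phosphate off eIF2 again. In the unfolded protein response, the sensors PERK, IRE1 and ATF6 respond to misfolded protein in the endoplasmic reticulum (ER), and raise chaperones such as BiP (Hspa5) and the factor XBP1. Atf4 and eIF2 are regulated largely in translation and by phosphorylation, which mRNA levels do not measure.

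The promoters of the genes whose levels changed, and of the other genes that hold a known stress motif, are shown so that those motifs can be seen in place. Each run is the 250 bases before the RefSeq start in GRCm38.p6, 5′ to 3′ on the gene's own strand, and capitals mark the fixed letters of a motif.
Ppp1r15a: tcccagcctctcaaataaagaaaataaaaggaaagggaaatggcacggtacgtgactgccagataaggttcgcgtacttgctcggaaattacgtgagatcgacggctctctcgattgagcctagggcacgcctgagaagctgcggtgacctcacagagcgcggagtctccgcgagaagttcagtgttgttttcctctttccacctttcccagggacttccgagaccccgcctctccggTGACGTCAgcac
Hspa5: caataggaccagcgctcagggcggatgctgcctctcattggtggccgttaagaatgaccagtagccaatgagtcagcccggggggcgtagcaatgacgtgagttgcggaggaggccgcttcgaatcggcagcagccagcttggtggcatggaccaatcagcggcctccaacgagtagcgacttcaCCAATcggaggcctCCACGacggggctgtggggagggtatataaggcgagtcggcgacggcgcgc
Stc2: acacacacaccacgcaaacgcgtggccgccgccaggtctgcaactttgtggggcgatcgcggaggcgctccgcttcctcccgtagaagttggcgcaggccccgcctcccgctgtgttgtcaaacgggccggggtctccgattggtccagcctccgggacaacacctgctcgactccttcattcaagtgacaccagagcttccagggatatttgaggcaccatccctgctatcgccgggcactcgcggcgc
Asns: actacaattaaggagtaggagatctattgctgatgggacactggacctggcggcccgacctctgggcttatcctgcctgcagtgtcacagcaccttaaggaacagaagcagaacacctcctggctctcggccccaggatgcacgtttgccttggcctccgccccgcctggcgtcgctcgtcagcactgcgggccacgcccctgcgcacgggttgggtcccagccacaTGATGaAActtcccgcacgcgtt
Atf3: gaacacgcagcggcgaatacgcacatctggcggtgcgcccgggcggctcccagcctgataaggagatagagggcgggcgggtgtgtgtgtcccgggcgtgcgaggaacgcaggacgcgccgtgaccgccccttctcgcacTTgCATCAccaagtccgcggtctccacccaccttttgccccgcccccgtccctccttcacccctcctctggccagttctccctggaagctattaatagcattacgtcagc
The Ppp1r15a window (chr7:45526269-45526518, minus strand) held the cyclic AMP response element TGACGTCA, from 12 to 5 bases upstream of the start. The Hspa5 window (chr2:34771840-34772089, plus strand) held the ER stress response element, CCAAT and CCACG with 9 bases between them, from 65 to 47 bases upstream. The composite element of C/EBP and ATF factors, TGATGNAA, lay from 23 to 16 bases upstream in Asns (chr6:7693210-7693459, minus strand). Atf3 (chr1:191183334-191183583, minus strand) held that composite element in the other orientation, TTNCATCA, from 110 to 103 bases upstream. The Stc2 window (chr11:31370062-31370311, minus strand) held none of the 3 motifs. Both strands were searched in 32851 such windows, and no motif found in these genes overlapped another. Among all windows, 3.45% held the composite element, 1.55% the cyclic AMP response element and 0.113% the ER stress response element. The windows of Atf4, Ddit3, Xbp1 and Trib3 also held none, and a match is a description of letters, not of binding.

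Per length, the 8 measured genes covered a wide range in WT-Control muscle. Atf4 stood highest at 76.4 ± 1.96 RPKM (CPM per 1 kilobase of gene model, where CPM is counts scaled to a common library total) and Hspa5 next at 28 ± 0.912 RPKM (SD, n = 4 each). Ppp1r15a followed at 4.10 ± 0.982 RPKM, Ddit3 at 2.90 ± 0.568 RPKM and Atf3 at 1.01 ± 0.283 RPKM. Trib3 (0.491 ± 0.243 RPKM), Stc2 (0.423 ± 0.28 RPKM) and Asns (0.372 ± 0.084 RPKM) were the lowest, and these 3 neighbours did not differ beyond their spread. From here on, levels of a gene across libraries are given as CPM, with TMM-scaled library totals.

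Library totals ran from 33112459 to 56369917 estimated counts, and 3 counts equalled at most 0.0906 CPM. Markers of muscle fibres summed to between 155300 and 345300 CPM, so that every library was of skeletal muscle. These markers do not tell gastrocnemius from other muscles. The lowest sum was in Notch2-mKO-Unloading, where the mean was 247000 CPM and the highest 283600 CPM. The lowest sum in any other group was 207900 CPM, in WT-Unloading. The part of this low fibre sum in the results was not tested, beyond the fits that leave out 1 library. In bulk tissue, fewer cells of a type and less RNA per cell cannot be told apart. Notch2 itself averaged 1.43 ± 0.122 CPM in Notch2-mKO and 1.76 ± 0.312 CPM in WT after unloading, 1.78 ± 0.47 CPM against 2.28 ± 0.631 CPM in diabetes, and 1.87 ± 0.584 CPM against 1.84 ± 0.068 CPM in controls (SD, n = 4 each). Counts over the whole gene in whole muscle do not check a deletion in fibres. WT-Unloading replicate 1 and Notch2-mKO-Unloading replicate 4 stood apart from the other unloaded libraries for several genes below, and results that rest on them are given with and without them. Over all genes, Notch2-mKO-Unloading replicate 1 was the least like its group. Its Pearson correlations of log2 CPM with replicates 2, 3 and 4 were 0.976, 0.977 and 0.969. Among replicates 2, 3 and 4 they were 0.978 to 0.982. It was left out only in the fits that leave out 1 library. Libraries also differed in base composition. The mean log2 level of 1285 AT-rich genes (under 42% GC) minus that of 2606 GC-rich genes (over 56% GC) was -0.667 ± 0.223 in Notch2-mKO-Unloading, -0.269 ± 0.0758 in WT-Unloading, -0.539 ± 0.154 in Notch2-mKO-Diabetes, -0.295 ± 0.153 in WT-Diabetes, -1.02 ± 0.276 in Notch2-mKO-Control and -1.37 ± 0.35 in WT-Control (SD, n = 4 each).

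Ppp1r15a, the stress-induced phosphatase subunit, was higher after unloading in both genotypes. Its levels were 18.5, 29.2, 25.5 and 111 CPM in Notch2-mKO-Unloading, against 12, 9.45, 11.9 and 15.1 CPM in Notch2-mKO-Control. Replicate 4 was far above the other 3 unloaded libraries, all of which were above every control. This gave a log2 fold change of 1.93 with a standard error (SE) of 0.445. In WT-Unloading, Ppp1r15a had 74.1, 40.1, 19.9 and 26.7 CPM, against 12.1, 14.1, 7.61 and 12.4 CPM in WT-Control. Replicate 1 was the highest, and the groups did not overlap. In WT the log2 fold change was 1.80 (SE 0.446, adjusted p = 0.00284, edgeR's quasi-likelihood test with Benjamini-Hochberg adjustment over all genes, used throughout), and a gene is called here when its adjusted p is below 0.05. Without WT-Unloading replicate 1 it was 1.32, and the adjusted p over the 8 fits that leave out 1 library ran from 0.00154 to 0.0234. Without both libraries that stand apart, the Notch2-mKO value was 1.01. The unloaded levels of Notch2-mKO and WT overlapped, and the 2 responses to unloading differed by 0.13 log2 units (SE 0.613). This difference uses the same unloaded Notch2-mKO values, so it too is given with no test. The sign of that difference changed with 1 library, since it was -0.781 without Notch2-mKO-Unloading replicate 4 and 0.606 without WT-Unloading replicate 1.

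**Figure D1:**
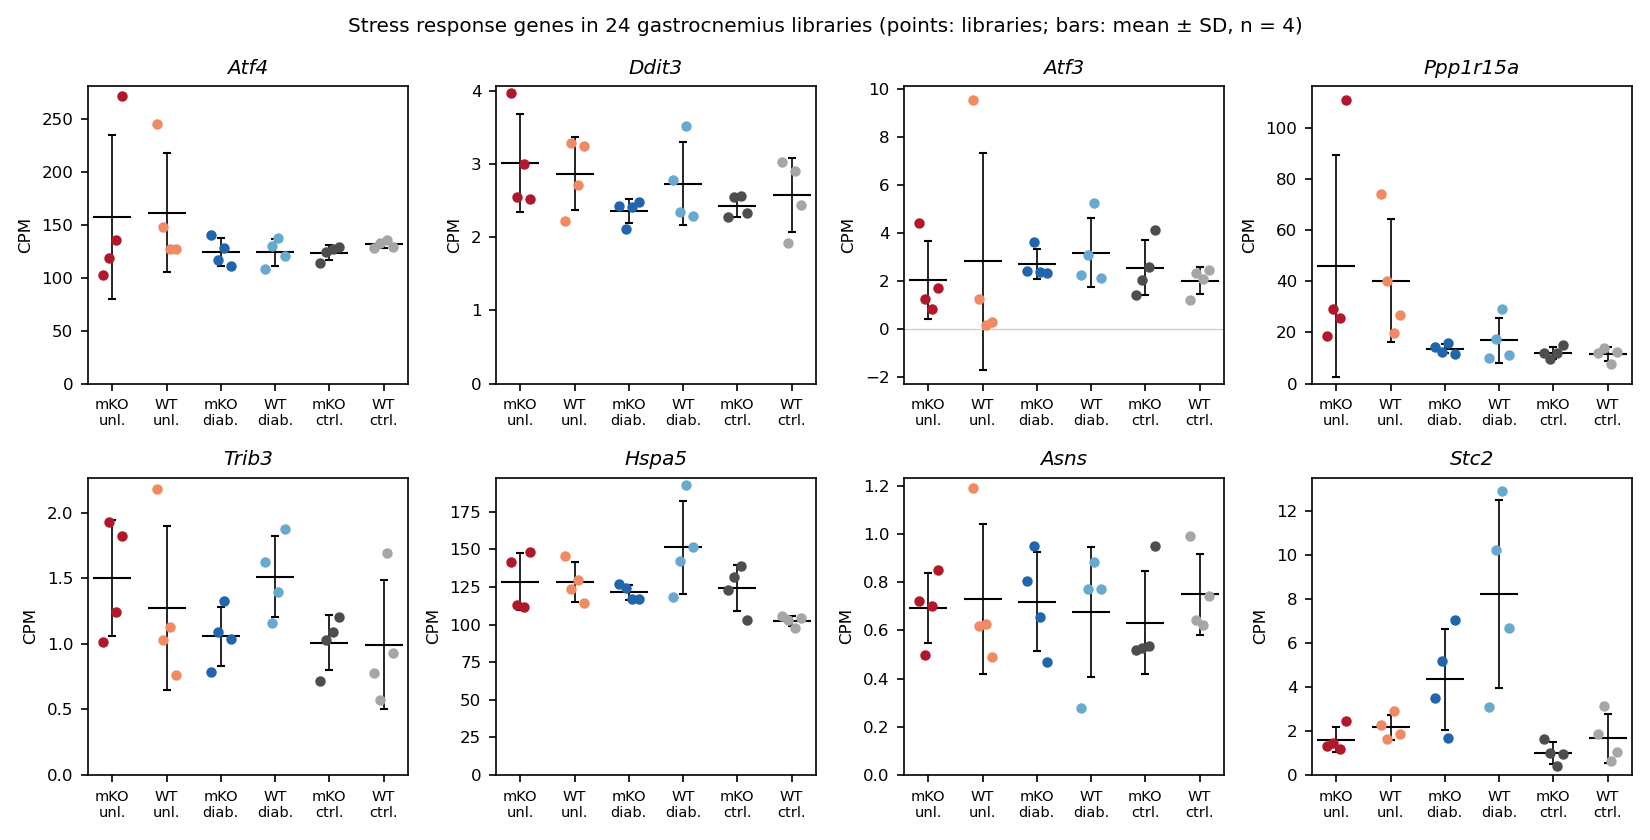
Levels of the 8 measured genes in CPM (vertical axis, a separate scale per gene) in the 4 libraries of each group, with black bars for the mean ± SD. Ppp1r15a is above its controls in every unloaded library, with single points at 111 CPM in Notch2-mKO and 74.1 CPM in WT, Stc2 is highest in the diabetes groups, and Hspa5 in WT-Diabetes and WT-Unloading lies above all 4 WT-Control libraries.

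Diabetes gave a different picture for Ppp1r15a. It had 14.5, 12.5, 15.9 and 11.7 CPM in Notch2-mKO-Diabetes, inside or just above the 9.45 to 15.1 CPM of Notch2-mKO-Control, with a log2 fold change of 0.18 (adjusted p = 0.856). In WT-Diabetes it had 9.97, 17.3, 29.3 and 11 CPM, overlapping the 7.61 to 14.1 CPM of WT-Control, with a log2 fold change of 0.55 (adjusted p = 0.354). Neither passed the threshold. Ppp1r15b, the constitutive subunit for the same phosphatase, did not pass in Notch2-mKO and passed in WT. It averaged 17.9 ± 3.88 CPM in Notch2-mKO-Unloading and 16.5 ± 2.32 CPM in Notch2-mKO-Diabetes, against 16.2 ± 1.04 CPM in Notch2-mKO-Control. In WT it averaged 20 ± 2.3 CPM in WT-Unloading and 20.5 ± 3.06 CPM in WT-Diabetes, against 14.1 ± 1.48 CPM in WT-Control (SD, n = 4 each). After unloading its log2 fold change was 0.15 in Notch2-mKO (adjusted p = 0.553) and 0.51 in WT (adjusted p = 0.00656), and in diabetes 0.03 in Notch2-mKO (adjusted p = 0.94) and 0.54 in WT (adjusted p = 0.00446). The differences between genotypes in these responses did not pass (-0.36, adjusted p = 0.414 for unloading, and -0.52, adjusted p = 0.499 for diabetes).

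Atf4, the central transcription factor of the response, did not pass the threshold in any comparison. It had 103, 118.5, 135.5 and 271.9 CPM in Notch2-mKO-Unloading, against 113.6, 124, 127.3 and 129.6 CPM in Notch2-mKO-Control. It had 245.2, 147.7, 127.1 and 127 CPM in WT-Unloading, against 128.4, 133.3, 135.7 and 129.5 CPM in WT-Control. The high values are again Notch2-mKO-Unloading replicate 4 and WT-Unloading replicate 1, and the remaining unloaded libraries overlapped the controls. The log2 fold change in Notch2-mKO was 0.35 (adjusted p = 0.331), and it was -0.06 without Notch2-mKO-Unloading replicate 4. In WT it was 0.30 (adjusted p = 0.301), and 0.02 without WT-Unloading replicate 1. In diabetes Atf4 averaged 124 ± 13 CPM in Notch2-mKO-Diabetes against 124 ± 7.06 CPM in Notch2-mKO-Control, and 124 ± 12.7 CPM in WT-Diabetes against 132 ± 3.39 CPM in WT-Control (SD, n = 4 each).

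Ddit3, which encodes the pro-apoptotic factor CHOP, lay between 1.92 and 3.97 CPM in all 24 libraries. It averaged 3.02 ± 0.673 CPM in Notch2-mKO-Unloading against 2.43 ± 0.153 CPM in Notch2-mKO-Control, and 2.87 ± 0.502 CPM in WT-Unloading against 2.58 ± 0.505 CPM in WT-Control (SD, n = 4 each). The groups overlapped in both genotypes, and the log2 fold changes of 0.31 (SE 0.187) and 0.16 did not pass. With the trends of each library against GC content and gene length removed, Ddit3 passed in WT, at 0.51 after unloading (adjusted p = 0.0427) and 0.51 in diabetes (adjusted p = 0.045).

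Atf3, an early stress-induced repressor and activator of transcription, was the most scattered of the 8 after unloading in WT. It had 9.57, 1.25, 0.168 and 0.271 CPM in WT-Unloading, against 1.20, 2.33, 2.07 and 2.44 CPM in WT-Control. Replicate 1 was above all 4 controls, while the lowest 2 unloaded libraries were below all of them. The log2 fold change was 0.49 (SE 0.71, adjusted p = 0.626) with all libraries, and -1.80 (adjusted p = 0.0208) without WT-Unloading replicate 1, so that 1 library decided both its sign and its call. In Notch2-mKO-Unloading Atf3 had 4.40, 1.25, 0.813 and 1.70 CPM, against 1.43, 2.06, 2.59 and 4.11 CPM in Notch2-mKO-Control, and the groups overlapped. In diabetes it did not pass in either genotype, with averages of 2.69 ± 0.629 CPM in Notch2-mKO-Diabetes against 2.55 ± 1.14 CPM in Notch2-mKO-Control, and 3.18 ± 1.44 CPM in WT-Diabetes against 2.01 ± 0.562 CPM in WT-Control (SD, n = 4 each).

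Trib3, a pseudokinase induced by ATF4 and CHOP that restrains both the response and AKT signalling, was low, with 24 to 105 counts per library. Its level averaged 1.06 ± 0.225 CPM in Notch2-mKO-Diabetes against 1.01 ± 0.209 CPM in Notch2-mKO-Control (SD, n = 4 each). In WT it had 1.62, 1.16, 1.40 and 1.88 CPM in WT-Diabetes, against 0.780, 0.570, 1.70 and 0.928 CPM in WT-Control. Only WT-Control replicate 3 reached into the range of the diabetic libraries. For Trib3 the log2 fold change was 0.61 (SE 0.33, adjusted p = 0.159). Without WT-Control replicate 3 it was 1 (adjusted p = 0.0302), and with the GC and length trends removed 0.96 (adjusted p = 0.0276). After unloading Trib3 did not pass in either genotype, at 0.58 (adjusted p = 0.285) in Notch2-mKO and 0.37 (adjusted p = 0.411) in WT.

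Asns, the asparagine synthetase and a standard ATF4 target, was among the lowest of the measured genes, with 12 to 56 counts and between 0.278 and 1.19 CPM. Its log2 fold changes after unloading were 0.14 in Notch2-mKO (SE 0.354, adjusted p = 0.85) and -0.03 in WT (SE 0.354, adjusted p = 0.961). In diabetes they were 0.19 in Notch2-mKO (SE 0.353, adjusted p = 0.797) and -0.14 in WT (SE 0.353, adjusted p = 0.796). Changes of the size of these SEs were not detectable here.

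Stc2, a secreted glycoprotein made under ER and nutrient stress, rose in diabetes in both genotypes and had the largest fold changes of the 8 genes. It had 3.50, 5.19, 1.69 and 7.04 CPM in Notch2-mKO-Diabetes, against 1.63, 0.984, 0.412 and 0.977 CPM in Notch2-mKO-Control. The lowest diabetic library was just above the highest control, and the groups did not overlap. Stc2 had a log2 fold change of 2.11 (SE 0.477, adjusted p = 0.0143). In WT-Diabetes it had 3.08, 10.2, 12.9 and 6.67 CPM, against 1.86, 3.13, 0.622 and 1.05 CPM in WT-Control. The groups overlapped by 1 library, since WT-Diabetes replicate 1 lay just below WT-Control replicate 2. The log2 fold change was 2.29 (SE 0.465, adjusted p = 0.000593). In Notch2-mKO the call was lost without Notch2-mKO-Control replicate 4 (2.10, adjusted p = 0.0532) or without Notch2-mKO-Diabetes replicate 4 (1.78, adjusted p = 0.0641). In WT it held in each of the 8 fits without 1 library, from 1.98 to 2.81. The difference between the 2 responses was -0.17 (SE 0.657, adjusted p = 0.963). After unloading, Stc2 had 1.31, 1.46, 1.20 and 2.45 CPM in Notch2-mKO-Unloading and 2.27, 1.62, 2.91 and 1.85 CPM in WT-Unloading, and its log2 fold changes of 0.68 and 0.36 did not pass.

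**Figure D2:**
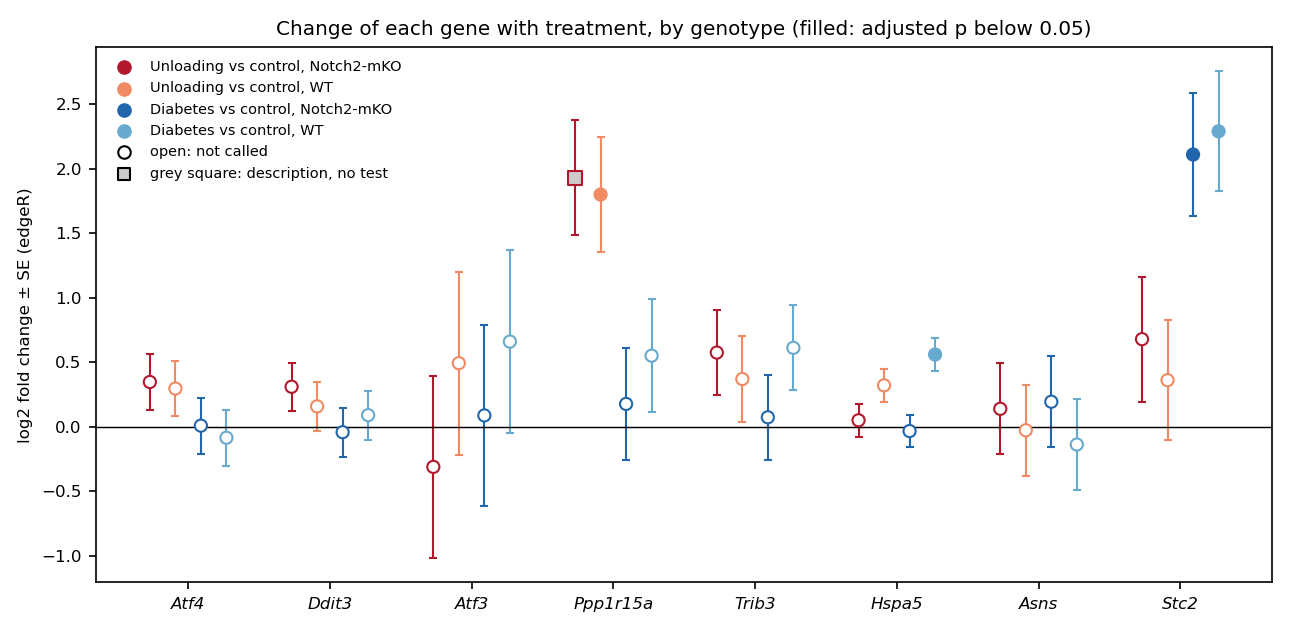
Log2 fold changes of the 8 measured genes (vertical axis, bars: ± SE) for unloading and diabetes in each genotype, with filled points for an adjusted p below 0.05. Filled points are Ppp1r15a in unloaded WT (1.80), Stc2 in diabetes (2.11 in Notch2-mKO and 2.29 in WT) and Hspa5 in WT diabetes (0.56), and the grey square is Ppp1r15a in unloaded Notch2-mKO (1.93), shown without a test.

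Hspa5, the ER chaperone BiP, rose in diabetic WT muscle, by less than Stc2. In Notch2-mKO-Diabetes, Hspa5 had 127.2, 124.5, 116.8 and 117.3 CPM, against 122.9, 131.9, 139.1 and 103.3 CPM in Notch2-mKO-Control. The diabetic libraries lay inside the control range, and the log2 fold change was -0.03 (SE 0.127, adjusted p = 0.911). In WT-Diabetes it had 118.6, 142.1, 193.1 and 151.6 CPM, against 105.5, 103, 97.9 and 104.4 CPM in WT-Control. All 4 diabetic libraries were above all 4 controls, and replicate 3 was the highest. The log2 fold change was 0.56 (SE 0.127, adjusted p = 0.00155), and it was 0.42 without WT-Diabetes replicate 3, with adjusted p-values up to 0.0115 over the 8 fits without 1 library. With the GC and length trends removed it was 0.28 (adjusted p = 0.0908) and no longer passed. In WT-Diabetes replicate 3, 13 of 17 other ER chaperones and folding enzymes were at the highest level of the group (33.9% of all 13048 genes were; the sum of the 17 was 1069 CPM there and 711 to 805 CPM in the other 3), and satellite cell markers summed to 87.1 CPM against 36.3 to 46.3 CPM. Their part in the result was not tested, beyond the fit without that library.

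Notch2-mKO minus WT in the Hspa5 response to diabetes was -0.59 (SE 0.18), with an unadjusted p of 0.00289 and an adjusted p of 0.459, so the difference failed the correction. After unloading Hspa5 had 141.9, 112.8, 112 and 148 CPM in Notch2-mKO-Unloading, overlapping its controls, with a log2 fold change of 0.05 (adjusted p = 0.849). In WT-Unloading it had 145.8, 124, 129.4 and 114.1 CPM, all above WT-Control, with a log2 fold change of 0.32 (adjusted p = 0.0518). DESeq2 put that last value below the threshold (adjusted p = 0.0427).

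Xbp1, the factor spliced by IRE1, was listed at 0 in every library. Of the marker genes, Acta2 and Ly6g were likewise at 0 throughout. Acta2 is the actin of the smooth muscle around vessels, so a gene in use can be listed at 0 in these tables, and no level of Xbp1 is given here.

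In unloaded Notch2-mKO 7.31% of all 13048 genes were called. Ppp1r15a is left out of the count there, since that contrast entered the choice, and 0 of the other 7 genes passed with edgeR, with DESeq2 or at an unadjusted p below 0.05. In unloaded WT 1 of 8 passed, against 34.7% of all genes. In diabetes 1 of 8 passed in Notch2-mKO (Stc2), against 5.59% of all genes, and 2 of 8 in WT (Stc2 and Hspa5), against 33.4%. Since 1 gene is the smallest count above 0 that a set of 8 can show, nothing particular to the set is read from these counts. The median log2 fold change of the 8, Ppp1r15a included, was 0.33 in unloaded Notch2-mKO and 0.34 in unloaded WT, 0.081 in diabetic Notch2-mKO and 0.56 in diabetic WT. The medians over all genes were 0.021, -0.019, -0.0064 and -0.015 in the same order of comparisons. Unloading and diabetes share their controls within a genotype, so their values are not independent.

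Between genotypes, edgeR called 0 of the 8 genes and 0% of all genes in controls, after unloading and in diabetes, and likewise for the difference between genotypes in either response. DESeq2 also called 0 of the 8 in each of these 5 comparisons. Of all 13048 genes it called 1 in controls, 5 after unloading, 0 in diabetes, 122 for the difference in the unloading response and 0 for that in the diabetes response. At an unadjusted p below 0.05, edgeR had 695, 1345, 692, 1875 and 1142 of all genes in these comparisons, in the same order. Of the 8, 1 gene reached that level in controls (Hspa5, log2 fold change 0.28, adjusted p = 0.893) and 0 after unloading. In diabetes 2 passed (Hspa5 at -0.32 and Stc2 at -0.92, adjusted p = 0.872 each). For the difference in the unloading response 0 passed, and for that in the diabetes response 1 (Hspa5, given above). The SEs of these contrasts, between 0.127 for Hspa5 and 0.714 for Atf3 in controls, set what size of difference could be seen. They were larger for the difference in the unloading response, from 0.18 for Hspa5 to 1 for Atf3. Ppp1r15a is among the 8, although its rise in unloaded Notch2-mKO entered the choice, so its part in the unloading counts is a description.

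Ppp1r15a and Atf4 varied together across libraries, with a Pearson correlation of log2 CPM of 0.798 over the 24 libraries and 0.876 after group means were subtracted. Without Notch2-mKO-Unloading replicate 4 and WT-Unloading replicate 1 it was 0.336 over 22 libraries, so the correlation rests largely on those 2. The libraries share groups, depth and base composition, so this describes the data and carries no p. In the same 2 libraries a list of 13 genes, the cytosolic aminoacyl-tRNA synthetases with the tRNA exporter Xpot, was also high. These enzymes load amino acids onto tRNAs, and ATF4 drives many of them in cultured cells. Its summed level was 916, 1163, 1094 and 1586 CPM in Notch2-mKO-Unloading, and 1624, 1213, 1202 and 1106 CPM in WT-Unloading, against 980 to 1089 CPM in Notch2-mKO-Control and 1002 to 1024 CPM in WT-Control. In each of the 2 libraries, 12 of 13 genes were at the highest level of their group, and so were 30.8% of all 13048 genes in Notch2-mKO-Unloading replicate 4 and 33.4% in WT-Unloading replicate 1. Other lists also peaked there, such as the eIF2 list described below, with 7 of 15 genes in that Notch2-mKO library and 13 of 15 in that WT library, so nothing particular to the synthetases is read from this. Other values moved with these libraries. Satellite cell markers summed to 85.9 CPM in Notch2-mKO-Unloading replicate 4 against 50.7 to 57.0 CPM in the other 3, and to 67.4 CPM in WT-Unloading replicate 1 against 43.0 to 59.3 CPM, and their part was not tested.

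**Figure D3:**
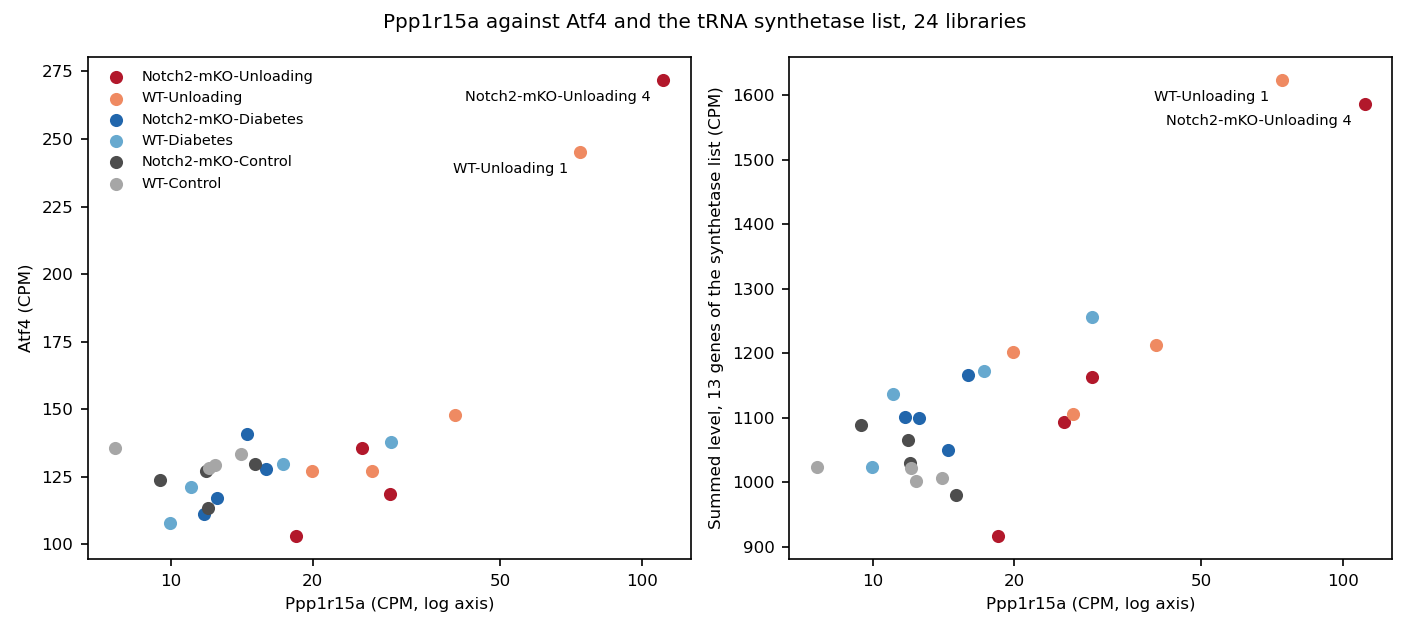
Ppp1r15a in CPM (horizontal, log axis) against Atf4 in CPM (left) and against the summed level of the 13 genes of the tRNA synthetase list in CPM (right), 1 point per library, coloured by group. At the upper right in both panels lie Notch2-mKO-Unloading replicate 4, at 271.9 CPM of Atf4 and a sum of 1586 CPM, and WT-Unloading replicate 1, at 245.2 CPM and a sum of 1624 CPM.

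Genes most like each member were taken as the 2 non-members with the highest Pearson correlation of log2 CPM over the 24 libraries, among genes averaging at least 2 CPM. For Ppp1r15a these were Nploc4 (0.932) and Samd4 (0.913). For Atf4 they were Sqstm1 (0.914) and Nkiras2 (0.901), for Stc2 Trp53inp1 (0.889) and Rnf169 (0.888), and for Hspa5 Tor1aip2 (0.864) and Ap2b1 (0.819). Atf3 was nearest to Xirp1 (0.853) and Fnbp1 (0.822). The low genes had weaker neighbours, with Trib3 at 0.768 for Tmem66 and 0.71 for 2810025M15Rik, Ddit3 at 0.701 for Rpl24 and 0.687 for Rps25, and Asns at 0.687 for Impdh1 and 0.653 for Tor2a.

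The pathway around the 9 genes was described with lists of its other genes, read against the shares of all genes called higher and lower. These were 4.11% and 3.2% in unloaded Notch2-mKO, 18.4% and 16.3% in unloaded WT, 3.05% and 2.54% in diabetic Notch2-mKO, and 17.8% and 15.5% in diabetic WT. No gene of any list was called for the difference between genotypes in either response. A call in a single genotype is therefore not read as a difference between genotypes. Among 15 genes of the eIF2 kinases, eIF2 and its exchange factor eIF2B, with Ppp1r15b among them, calls were nearly all upward: 3 higher and 0 lower in unloaded Notch2-mKO, 7 and 0 in unloaded WT, 2 and 0 in diabetic Notch2-mKO, and 5 and 1 in diabetic WT. Eif2s2, the beta subunit of eIF2, averaged 208 ± 41.5 CPM in Notch2-mKO-Unloading against 124 ± 19.6 CPM in Notch2-mKO-Control, and 265 ± 13.3 CPM in WT-Unloading against 94.0 ± 30.1 CPM in WT-Control (SD, n = 4 each). Its log2 fold changes were 0.74 (adjusted p = 0.00849) and 1.49 (adjusted p = 1.52e-06), and it also rose in diabetic WT (1.09, adjusted p = 2.71e-05). With the GC and length trends removed, Eif2s2 stood at 0.543, 0.998 and 0.628 in the same order, and was still called. The list then had 6 higher and 1 lower in unloaded WT, or 4 and 1 with the replicate number also used as a block. Eif2s3x, the gamma subunit, rose in all 4 comparisons, by 0.63, 1.15, 0.53 and 0.91 log2 units in the order of lists above, although it has a close copy on the Y chromosome and the split of reads between the 2 is uncertain. Its call in diabetic Notch2-mKO was lost without Notch2-mKO-Control replicate 2, 3 or 4 or Notch2-mKO-Diabetes replicate 4 (adjusted p from 0.0639 to 0.081). Eif2b1, a subunit of eIF2B, was called at 0.55 in unloaded Notch2-mKO, 0.71 in unloaded WT and 0.63 in diabetic WT, and the Notch2-mKO call was lost without any 1 of 5 libraries (each Notch2-mKO-Control library and Notch2-mKO-Unloading replicate 4, adjusted p from 0.0615 to 0.182).

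Calls among the kinases differed by gene. PERK (Eif2ak3) and the heme-regulated kinase (Eif2ak1) passed in none of the 4 comparisons, and Eif2ak3 averaged between 2.10 and 2.59 CPM in the 6 groups. The amino acid sensor GCN2 (Eif2ak4) rose in Notch2-mKO-Diabetes, with 3.24 ± 0.199 CPM against 1.92 ± 0.3 CPM in Notch2-mKO-Control (SD, n = 4 each, log2 fold change 0.75, adjusted p = 0.0143). Its WT value in diabetes was 0.32 (adjusted p = 0.147), and the difference between genotypes did not pass (0.43, adjusted p = 0.622). The double-stranded RNA kinase PKR (Eif2ak2) was at 0.19 (adjusted p = 0.751) after unloading and 0.65 (adjusted p = 0.216) in diabetes in Notch2-mKO. In WT it rose after unloading (0.99, adjusted p = 0.0162) and in diabetes (1.01, adjusted p = 0.0152). The differences between genotypes did not pass (adjusted p = 0.424 for unloading and 0.853 for diabetes).

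Of the 13 genes of the tRNA synthetase list, edgeR called 0 in Notch2-mKO in either treatment. DESeq2 called 0 after unloading and 1 in diabetes, and at an unadjusted p below 0.05 there were 6 and 1. Of all 13048 genes, DESeq2 called 1457 and 1119 in these comparisons, and 3228 and 2878 had an unadjusted p below 0.05. In WT 5 were higher and 1 lower after unloading, and 4 higher and 0 lower in diabetes. Eprs, the glutamyl-prolyl synthetase, averaged 333 ± 82.5 CPM in WT-Unloading and 277 ± 46.8 CPM in WT-Diabetes, against 173 ± 26 CPM in WT-Control (SD, n = 4 each), with log2 fold changes of 0.94 (adjusted p = 0.000151) and 0.68 (adjusted p = 0.00331). Its responses did not differ between genotypes at the threshold (-0.531, adjusted p = 0.304 for unloading, and -0.387, adjusted p = 0.658 for diabetes). The asparaginyl synthetase Nars was called at 0.62 in unloaded WT, and the threonyl synthetase Tars at 0.74 in unloaded WT and 0.57 in diabetic WT. The leucyl synthetase Lars was called at 0.37 in diabetic WT, but stood at 0.18 (adjusted p = 0.281) with the GC and length trends removed, and its call was lost without WT-Control replicate 1 or 3 or WT-Diabetes replicate 2 or 3 (adjusted p from 0.054 to 0.0687). Without the 2 unloaded libraries that stand apart, 1 gene was lower and 0 higher in Notch2-mKO, and the list's median log2 fold change was 0.034 there, against 0.2 with them. In WT the counts were then 4 higher and 2 lower, and the median was 0.11, against 0.25 with them.

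Genes of amino acid synthesis and one-carbon metabolism did not move as a group. Of 12 tested, unloaded Notch2-mKO had 1 higher and 1 lower, with 2 and 2 in unloaded WT, 0 and 2 in diabetic Notch2-mKO, and 3 and 4 in diabetic WT. Mthfd2, a mitochondrial folate enzyme, rose in Notch2-mKO-Unloading, with 5.54 ± 1.88 CPM against 2.66 ± 0.784 CPM in Notch2-mKO-Control (SD, n = 4 each, log2 fold change 1.06, adjusted p = 0.0129), but not without Notch2-mKO-Unloading replicate 4 (0.79, adjusted p = 0.0547). The unloading responses of Mthfd2 in the 2 genotypes were close, with a difference of 0.156 (SE 0.349, adjusted p = 0.885). Aldh1l2, another mitochondrial folate enzyme, rose in WT by 1.33 after unloading and 1.04 in diabetes. Its differences between genotypes did not pass (-1.05, adjusted p = 0.195 for unloading, and -0.6, adjusted p = 0.646 for diabetes). Pycr1, of proline synthesis, fell by 1.22 on the log2 scale in unloaded WT (adjusted p = 0.000184) and by 1.03 in diabetic Notch2-mKO (adjusted p = 0.012). For Pycr1 too, the differences between genotypes did not pass (0.65, adjusted p = 0.342 for unloading, and -0.353, adjusted p = 0.776 for diabetes). Got1, the cytosolic aspartate aminotransferase, was called at -0.485 in unloaded Notch2-mKO, -0.51 in unloaded WT, -0.405 in diabetic Notch2-mKO and -0.45 in diabetic WT. Its call in diabetic Notch2-mKO was lost in each fit without 1 library other than the one without Notch2-mKO-Control replicate 1 (adjusted p from 0.0706 to 0.112). Aldh18a1, of proline synthesis, was called at -0.98 in diabetic WT. Of 8 amino acid transporters tested, 0 were called in Notch2-mKO with edgeR (at an unadjusted p below 0.05, 0 after unloading and 2 in diabetes, and with DESeq2 0 and 1). In WT 1 was lower after unloading (Slc7a11, the cystine transporter, at -1.19) and 1 higher in diabetes (Slc6a9, a glycine transporter, at 0.76). The Slc6a9 call was lost without any 1 of 5 libraries (WT-Control replicate 1, 3 or 4 and WT-Diabetes replicate 2 or 3), with 0.50 (adjusted p = 0.214) without WT-Diabetes replicate 3.

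Among 15 other targets and partners of ATF4 and CHOP, unloaded Notch2-mKO had 3 higher and 1 lower, with 4 and 2 in unloaded WT, 1 and 0 in diabetic Notch2-mKO, and 5 and 1 in diabetic WT. The 3 higher in unloaded Notch2-mKO were 1 with upper quartile scaling, with the replicate block, with the libraries of the comparison only, with limma and without both libraries that stand apart, and 1 to 3 without single libraries. Ddit4, which encodes the mTORC1 inhibitor REDD1, was lower after unloading in both genotypes, and its rise in diabetes passed in WT but not in Notch2-mKO. It averaged 11 ± 7.46 CPM in Notch2-mKO-Unloading and 120 ± 35 CPM in Notch2-mKO-Diabetes, against 45.6 ± 36.1 CPM in Notch2-mKO-Control, and 9.63 ± 2.69 CPM in WT-Unloading and 128 ± 43.7 CPM in WT-Diabetes, against 44.9 ± 30.1 CPM in WT-Control (SD, n = 4 each). The log2 fold changes after unloading were -2.05 (adjusted p = 0.0246) in Notch2-mKO and -2.22 (adjusted p = 0.0026) in WT. The Notch2-mKO call was lost without Notch2-mKO-Control replicate 2 (-1.47, adjusted p = 0.109) or Notch2-mKO-Unloading replicate 1 or 3 (adjusted p = 0.0652 and 0.0525). In diabetes the values were 1.40 (adjusted p = 0.109) in Notch2-mKO, which did not pass, and 1.51 (adjusted p = 0.0282) in WT. The difference between genotypes in the diabetes response did not pass (-0.11, adjusted p = 0.98).

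Gadd45a, a growth arrest gene that ATF4 drives in atrophying mouse muscle, did not pass in Notch2-mKO and rose in WT. It averaged 9.16 ± 3.76 CPM in Notch2-mKO-Unloading and 11.4 ± 1.64 CPM in Notch2-mKO-Diabetes, against 5.18 ± 1.03 CPM in Notch2-mKO-Control. In WT it averaged 14.9 ± 9.46 CPM in WT-Unloading and 14.2 ± 5.69 CPM in WT-Diabetes, against 4.89 ± 2.41 CPM in WT-Control (SD, n = 4 each). Its log2 fold changes in Notch2-mKO were 0.83 (adjusted p = 0.146) after unloading and 1.14 (adjusted p = 0.057) in diabetes. In WT they were 1.61 (adjusted p = 0.00118) and 1.54 (adjusted p = 0.00185), and the difference between genotypes had an adjusted p of 0.501 for unloading and 0.853 for diabetes. Cebpb, a partner of ATF4, rose in diabetes, by 1.15 log2 units in Notch2-mKO (adjusted p = 0.0186) and 1.14 in WT (adjusted p = 0.0025). The Notch2-mKO call was lost without Notch2-mKO-Control replicate 4 (0.94, adjusted p = 0.0707) or Notch2-mKO-Diabetes replicate 4 (1.04, adjusted p = 0.0726). Vldlr, the very low density lipoprotein receptor, rose after unloading by 0.82 in Notch2-mKO and 1.19 in WT. Cebpg, another partner, was called at 0.58 in unloaded Notch2-mKO, 0.97 in unloaded WT and 0.84 in diabetic WT. Its Notch2-mKO call was lost without any 1 of 5 libraries (Notch2-mKO-Control replicate 2, 3 or 4 and Notch2-mKO-Unloading replicate 1 or 4, adjusted p from 0.0727 to 0.159), and its value in diabetic WT was 0.37 (adjusted p = 0.061) with the GC and length trends removed. Atf5, a relative of ATF4, was called at -0.67 in diabetic WT, and stood at -0.27 (adjusted p = 0.142) with those trends removed.

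**Figure D4:**
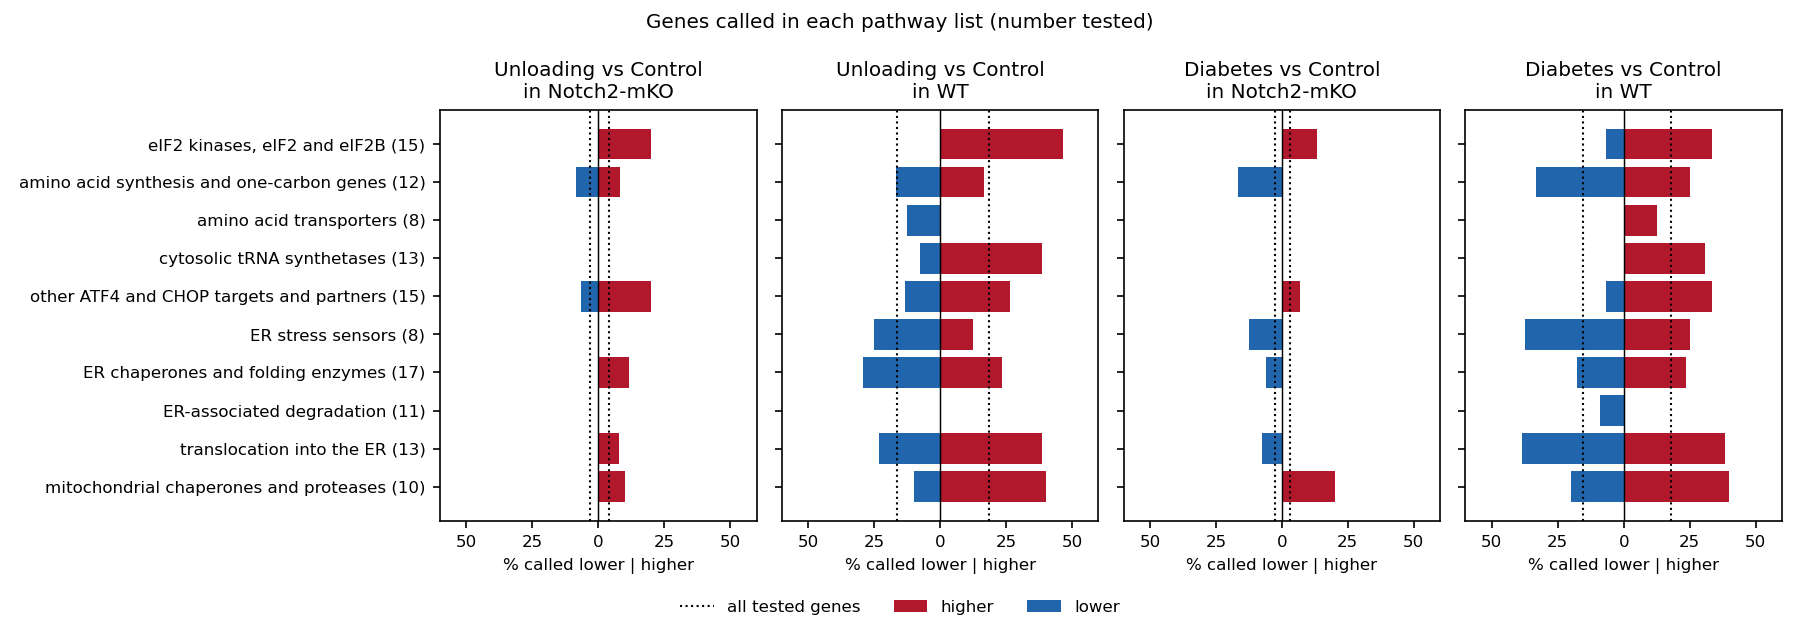
Share of the tested genes of each pathway list (number tested in brackets) that was called higher (bars to the right) or lower (bars to the left), in percent, in the 4 treatment comparisons, with dotted lines at the shares of all tested genes. In the eIF2 list, 7 of 15 genes were higher in unloaded WT and 3 of 15 in unloaded Notch2-mKO, to the right of the dotted lines.

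The ER side of the response held calls in both directions. Of 8 ER stress sensors and their processing enzymes, 0 passed in unloaded Notch2-mKO with edgeR (1 at an unadjusted p below 0.05, and 0 with DESeq2), and 1 was lower in diabetic Notch2-mKO. In WT 1 was higher and 2 lower after unloading, and 2 and 3 in diabetes, but with the GC and length trends removed 0 were higher and 1 lower under each treatment. Mbtps2, a protease that cleaves ATF6, was called at 0.90 in unloaded WT and 0.60 in diabetic WT, and stood at 0.13 (adjusted p = 0.449) and -0.16 (adjusted p = 0.336) with those trends removed. Atf6b was called at -0.75 in unloaded WT, and stood at -0.39 (adjusted p = 0.0715) without the trends. IRE1 (Ern1) passed in none of the 4 comparisons. Atf6 passed in diabetic WT (0.40, adjusted p = 0.0116) but stood at 0.06 with the GC and length trends removed, and at 0.26 (adjusted p = 0.0863) without WT-Diabetes replicate 3. Creb3l1, a sensor of the ATF6 type that drives collagen secretion, was lower in diabetes, with 1.33 ± 0.501 CPM in Notch2-mKO-Diabetes against 4.42 ± 2.41 CPM in Notch2-mKO-Control, and 1.34 ± 0.624 CPM in WT-Diabetes against 4.78 ± 1.7 CPM in WT-Control (SD, n = 4 each). Its log2 fold changes were -1.72 (adjusted p = 0.00857) and -1.84 (adjusted p = 0.000293), and in Notch2-mKO -1.27 (adjusted p = 0.0531) without Notch2-mKO-Control replicate 4. Creb3l1 was also called in unloaded WT, at -1.23 (adjusted p = 0.00653). The 8 fibroblast and tendon markers moved with it, with sums of 344 to 420 CPM in Notch2-mKO-Diabetes against 503 to 814 CPM in Notch2-mKO-Control, and 313 to 441 CPM in WT-Diabetes against 596 to 771 CPM in WT-Control. No marker of this list was at 0 in all libraries, and its part in the Creb3l1 values was not tested.

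Of 17 other ER chaperones and folding enzymes, unloaded Notch2-mKO had 2 higher and 0 lower, with 4 and 5 in unloaded WT, 0 and 1 in diabetic Notch2-mKO, and 4 and 3 in diabetic WT. Hsp90b1, the ER chaperone GRP94, rose in WT under both treatments, with 60.4 ± 8.38 CPM in WT-Unloading and 64.3 ± 12.2 CPM in WT-Diabetes, against 32.8 ± 4.57 CPM in WT-Control (SD, n = 4 each). Its log2 fold changes were 0.88 (adjusted p = 2.98e-05) and 0.97 (adjusted p = 1.68e-05), and 0.51 and 0.62 with the GC and length trends removed. For Hsp90b1 the differences between genotypes did not pass (-0.612, adjusted p = 0.171 for unloading, and -0.66, adjusted p = 0.459 for diabetes). Canx, the lectin chaperone calnexin, rose by 0.78 and 0.93 in WT, but by 0.23 (adjusted p = 0.257) and 0.37 (adjusted p = 0.0622) with those trends removed. Nor did the genotype differences for Canx pass (-0.397, adjusted p = 0.529 for unloading, and -0.535, adjusted p = 0.579 for diabetes). After unloading, the co-chaperone Dnajb9 was called at 0.43 in Notch2-mKO and 0.68 in WT, and stood at 0.19 (adjusted p = 0.449) and -0.00405 (adjusted p = 0.989) without the trends. Its relative Dnajc3 was called at 0.50 in unloaded Notch2-mKO. Without Notch2-mKO-Unloading replicate 4, Dnajb9 in Notch2-mKO was 0.25 (adjusted p = 0.204) and Dnajc3 0.37 (adjusted p = 0.14), and 7 and 5 of the 8 fits without 1 library lost these calls. The disulfide isomerase Txndc5 fell in diabetes in both genotypes, by 0.434 in Notch2-mKO (adjusted p = 0.015) and 0.59 in WT (adjusted p = 0.000101) on the log2 scale. Without Notch2-mKO-Control replicate 2 the Notch2-mKO value was -0.38 (adjusted p = 0.0529). With both trends removed, the WT counts of this list were 2 higher and 3 lower after unloading and 2 and 1 in diabetes. In Notch2-mKO no gene of the list was then called after unloading, and 1 was lower in diabetes.

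Of 11 genes of ER-associated degradation tested, edgeR called 0 in unloaded Notch2-mKO, unloaded WT and diabetic Notch2-mKO. There, an unadjusted p below 0.05 was reached by 0 of them in unloaded Notch2-mKO, 1 in unloaded WT and 2 in diabetic Notch2-mKO, and DESeq2 called 0, 0 and 1. Of 13 genes of translocation into the ER, 5 were higher and 3 lower in unloaded WT, and 5 and 5 in diabetic WT. Sec62, a channel subunit, rose by 1.53 and 1.43 there. For Sec62 the differences between genotypes did not pass (-0.99, adjusted p = 0.152 for unloading, and -0.872, adjusted p = 0.459 for diabetes). Spcs3, of the signal peptidase, was called at 1.22 in unloaded WT and 0.92 in diabetic WT, and stood at 0.50 and 0.22 (adjusted p = 0.216) with the GC and length trends removed. In Notch2-mKO 1 gene of that list was higher after unloading (Ssr3, at 0.465) and 1 lower in diabetes (Sec61g, at -0.44), and 4 and 6 of the 8 fits without 1 library lost these calls. Ssr3 was also called in WT, at 0.78 after unloading and 0.64 in diabetes, but stood at 0.12 (adjusted p = 0.337) and 0.00359 (adjusted p = 0.983) without the trends. Of 10 mitochondrial chaperones and proteases, 1 was higher in unloaded Notch2-mKO (Trap1, at 0.40, and not without Notch2-mKO-Control replicate 4 or Notch2-mKO-Unloading replicate 4) and 2 in diabetic Notch2-mKO. In WT 4 were higher and 1 lower after unloading, and 4 and 2 in diabetes. Yme1l1, an inner membrane protease, rose by 1.60 and 1.51 in WT, and by 0.67 and 0.57 with the GC and length trends removed. Clpx, of the matrix protease ClpXP, was called in WT at 0.90 after unloading and 0.78 in diabetes, and the co-chaperonin Hspe1 at -0.62 in diabetic WT. With the GC and length trends removed, Hspe1 stood at -0.29 (adjusted p = 0.0649) there. In diabetic Notch2-mKO Clpx was called at 0.46 and Yme1l1 at 0.72, and 6 and 7 of the 8 fits without 1 library lost these calls. Immediate early genes, a sign of how tissue was handled as well as of signalling, passed in 1 higher and 1 lower of 15 in unloaded Notch2-mKO, 3 and 3 in unloaded WT, 1 and 0 in diabetic Notch2-mKO, and 4 and 1 in diabetic WT.

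**Figure D5:**
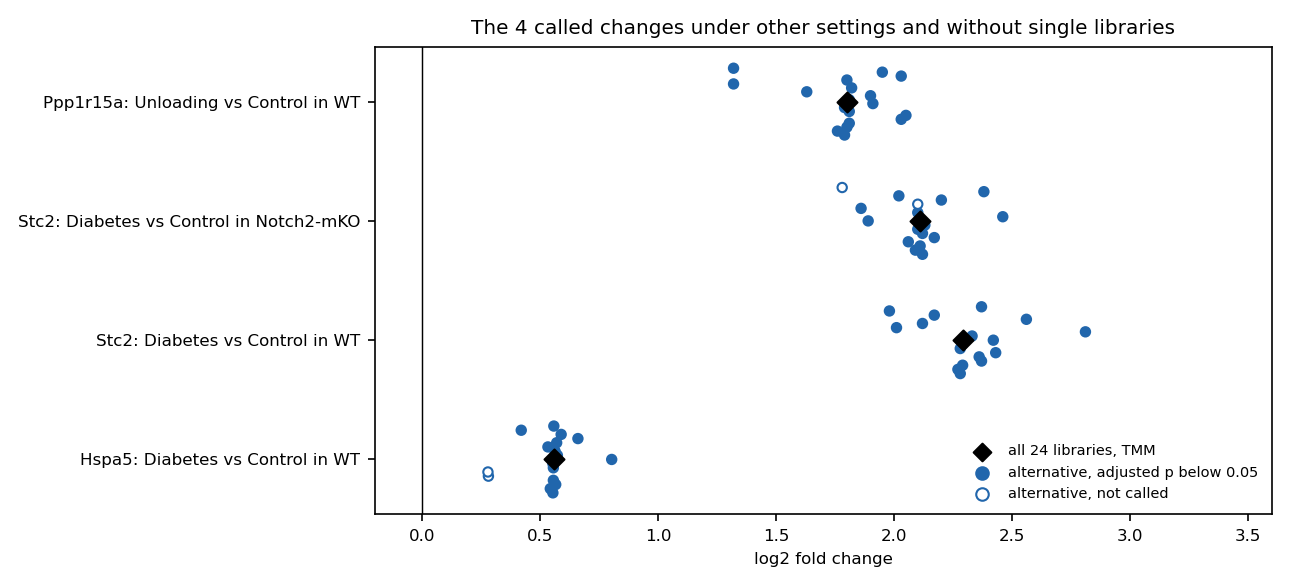
Log2 fold changes (horizontal axis) of the 4 tested changes past the threshold with all 24 libraries (diamonds), under other settings and without single libraries (circles, open where the adjusted p was 0.05 or more). None of the circles lies at or below 0, and Hspa5 in diabetic WT falls to 0.28 with the GC and length trends removed.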

How the data were processed

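RNA was sequenced from gastrocnemius muscle, and the authors deposited 4 tables of 36172 gene models that hold estimated counts per gene, many of them fractional, together with log2 values centred on the controls of each genotype, per the file headers and the values. The build is mm10, per the submitters' processing notes, while the name of any aligner or counter was not given in the sources used here. Control libraries appear in 2 tables each, with identical values in all 8 columns, and were used once. No 2 libraries of the same group agreed within sampling noise.

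Estimated counts were rounded and tested in R 4.3.3 with edgeR 4.0.16 (glmQLFit and glmQLFTest), with TMM scaling, the default expression filter (minimum count 10) and 1 coefficient per group over all 24 libraries. P-values were adjusted over 13048 genes by the Benjamini-Hochberg method, and the threshold was 0.05. CPM values used TMM-scaled totals, which ranged before scaling from 33112459 to 56369917. CPM was divided by model length for RPKM. The scripts were tested on simulated data. Fold changes describe groups, and floors of 3 counts cover counting error only.

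Alternatives were RLE and upper quartile scaling, no filter, the replicate number as a block, GC and length trends (lowess span 0.3) as offsets, the libraries of the comparison only, DESeq2 1.42.0, limma 3.58.1 on the authors' log2 values, and leaving out each library in turn. No consistent pairing by replicate number was seen, since no comparison had all 4 same-numbered correlations above 0.1. At most 2 pairs in a comparison passed 0.1, with the highest at 0.326 between the control groups. Shared handling by replicate number was not tested otherwise.

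The 9 genes, the gene lists and the tests were chosen with earlier results of these data known. All 9 genes were named in every comparison. From each list and treatment comparison up to 3 called genes with the smallest p were named, with Eif2ak1 to Eif2ak4, Ppp1r15b, Ern1 and Atf6 as regulators, and for each measured gene the 2 non-members most correlated with it. One result under this rule is not reported here. Promoter sequences are from RefSeq in GRCm38.p6, matched by symbol for 9 of 9 genes.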

Additional observations from a re-analysis of the deposited data

Results flagged for a closer look

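Each of 8 genes in each of 6 groups, 48 groups of 4 libraries in all, was checked for a single library far from the other 3, by Dixon's criterion at the 95% level. Chance gives about 1 such library in 20 groups, and 4 were found. Ppp1r15a was 111 CPM in Notch2-mKO-Unloading replicate 4, against 18.5 to 29.2 CPM in the other 3 libraries. The rise of Ppp1r15a in that group was known when the genes were chosen. Atf3 was 9.57 CPM in WT-Unloading replicate 1, against 0.167 to 1.25 CPM in the other 3. Atf3 was also apart in Notch2-mKO-Diabetes replicate 2, at 3.63 CPM against 2.31 to 2.44 CPM. Asns was 0.951 CPM in Notch2-mKO-Control replicate 4, against 0.520 to 0.533 CPM. The first 2 of these libraries are the ones in which Atf4 and the tRNA synthetase list were also highest among the unloaded libraries of their genotype.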

How the results depend on the processing

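Of 560 values of the 8 genes in the treatment comparisons under alternatives, 501 kept their direction and their side of the threshold, 6 lost a call, 10 gained one and 43 changed sign, none of them for a gene called with all libraries. Ppp1r15a in unloaded Notch2-mKO is included in this tally as a description. Of 800 values in the genotype comparisons 80 changed sign, and none of those results was called.

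The number of the 8 genes called in unloaded WT was 1, and it was 2 with the GC and length trends removed, with those trends and the replicate block, with the libraries of the comparison only, with DESeq2, with limma and without both libraries that stand apart (1 to 2 without single libraries). In unloaded Notch2-mKO it was 1 (Ppp1r15a, a description with no test), and 0 with limma (0 to 1 without single libraries). In diabetic WT it was 2, and 3 with the GC and length trends removed, where Hspa5 was lost and Ddit3 and Trib3 were gained (2 to 3 without single libraries, with Trib3 gained without WT-Control replicate 3). In diabetic Notch2-mKO it was 1 (0 to 1 without single libraries). The fit without both unloaded libraries that stand apart was chosen after seeing the data. The cause of these changes was not tested.

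Signs changed for values that were not called. With the replicate block, Atf3 in unloaded WT was -0.0396, and the block changed no call of the 8 genes. No consistent pairing by replicate number was seen. With GC and length trends removed, and with the block added, Hspa5 in unloaded Notch2-mKO was -0.0372 and -0.0308, Atf4 in diabetic WT 0.174 and 0.181, Ddit3 in diabetic Notch2-mKO 0.147 and 0.145, and the difference of the Ppp1r15a unloading responses -0.0942 and -0.189. Ppp1r15a in Notch2-mKO against WT after unloading was -0.0562 with both together. With limma, Asns was 0.126 in unloaded WT and 0.0286 in diabetic WT, Atf4 0.175 in diabetic WT, Ddit3 0.0872 and Hspa5 0.103 in diabetic Notch2-mKO, and the Ppp1r15a response difference -0.215. Atf4 in diabetic Notch2-mKO was -0.0123 with upper quartile scaling and -0.00485 with the libraries of the comparison only. Without both libraries that stand apart, Atf3 in unloaded WT was -1.80 (adjusted p = 0.0226), Trib3 there -0.0198, Atf4 and Hspa5 in unloaded Notch2-mKO -0.0552 and -0.024, Ppp1r15a in Notch2-mKO against WT after unloading -0.245 and its response difference -0.313. limma was not run for the 3 genotype comparisons, since the authors' log2 values are centred within each genotype.

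Without single libraries, log2 fold changes in unloaded WT ran from -1.80 to 0.887 for Atf3, -0.0198 to 0.745 for Trib3 and -0.364 to 0.123 for Asns. In unloaded Notch2-mKO they ran from -1.01 to 0.00705 for Atf3, -0.0391 to 0.111 for Hspa5 and -0.0612 to 0.498 for Atf4. In diabetic WT they ran from -0.29 to 0.112 for Asns and -0.0566 to 0.181 for Ddit3. In diabetic Notch2-mKO they ran from -0.0568 to 0.0579 for Atf4, -0.108 to 0.422 for Atf3, -0.058 to 0.194 for Trib3, -0.106 to 0.0279 for Hspa5 and -0.0683 to 0.00755 for Ddit3. Ppp1r15a in Notch2-mKO against WT after unloading ran from -0.711 to 0.674, its response difference from -0.781 to 0.606, and the Stc2 difference in diabetes from -0.69 to 0.176. Counts per library ran from 12 to 56 for Asns, 24 to 105 for Trib3, 8 to 450.5 for Atf3 and 17.5 to 672 for Stc2. The part of low counts in the spread of these genes was not tested.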
